A study of Drosophila melanogaster with 3 samples.

Results

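Doublesex (DSX) is a transcription factor through which Drosophila cells carry out the somatic sex decision. Its transcript is spliced differently in females and males, and the resulting isoforms, DSXF and DSXM, share an amino-terminal zinc-finger DNA-binding domain (the DM domain) and differ at the carboxy-terminus. The yolk protein genes of the fat body are the classic DSX targets, activated by DSXF and repressed by DSXM through the same sites. The regions described here are the DSXF peaks that lay farthest from DSXM, namely those with no overlap with any DSXM peak and a gap of more than 10 kb to the nearest one.

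There were 663 such DSXF peaks, called far DSXF peaks below, among the 6520 DSXF peaks of the series, of which 6494 lay on the sequences 2L, 2R, 3L, 3R, X and 4 to which the choice was limited. They made up 10.2% (95% Wilson interval 9.50 to 10.97%) of those 6494 peaks. Of the 2028 DSXF peaks on these sequences without a DSXM overlap, they were 32.7% (30.7 to 34.8%), and the other 1365 lay within 10 kb of a DSXM peak. The members were chosen by the positions of the peaks in both lists. Their gaps to DSXM and their number are therefore descriptions and were not tested, and a missing DSXM peak means only that none was called there.

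The series compared chromatin of S2 cells, a line derived from Drosophila embryos, in 3 samples. Cells of the DSXF sample carried the plasmid pMT5.1-DSXF-V5-His B and those of the DSXM sample the plasmid pMT5.1-DSXM-V5-His B. Both had been given the selection plasmid pCoBlast, and the tagged protein was precipitated in both through its V5 tag. Input DNA came from S2 cells that were not transfected, and for it 2 biological replicates were made. The pMT vectors carry a metallothionein promoter, so the tagged proteins were made from plasmids, in a single cultured line rather than in a tissue. Each isoform had 3 biological replicates that were pooled before alignment, in 4 sequence runs for DSXF. For DSXM the labels describe each file as an independent replicate. The files give 1 list of positions per isoform, on the dm3 build, with no height, score or p-value. No spread between replicates can be had and read depth is unknown. All intervals below cover counting error over peaks and not the spread between cultures, and no difference between the isoforms as conditions was tested. The intervals also treat peaks as independent of each other. Peaks that lie close together need not be, so the intervals may be too narrow.

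The far DSXF peaks were narrow. Their median width was 1130 bp (95% interval of the median 1107 to 1158 bp), with quartiles of 1024 and 1389 bp, a narrowest peak of 511 bp and a widest of 3825 bp. DSXF peaks without overlap but within 10 kb of DSXM had a median of 1145 bp (1130 to 1170 bp), so these intervals overlapped. DSXF peaks that overlapped a DSXM peak had a median of 1859 bp (1817 to 1900 bp). Of the far DSXF peaks, 426 (64.3%, 60.5 to 67.8%) were from 1000 to under 1500 bp wide, 118 (17.8%, 15.1 to 20.9%) were under 1000 bp and 40 (6.03%, 4.46 to 8.11%) were 2000 bp or wider. Among DSXF peaks that overlapped DSXM, 45.0% (43.5 to 46.4%) reached 2000 bp. Together the far DSXF peaks covered 0.840 Mb, which was 6.51% of the base pairs in DSXF peaks of the 6 sequences. Wider peaks meet a neighbour more often by their size alone, so the width was not tested as a property apart from the choice. Width was not taken as a measure of binding strength, since the files give no height or score to set it against.

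**Figure D1:**
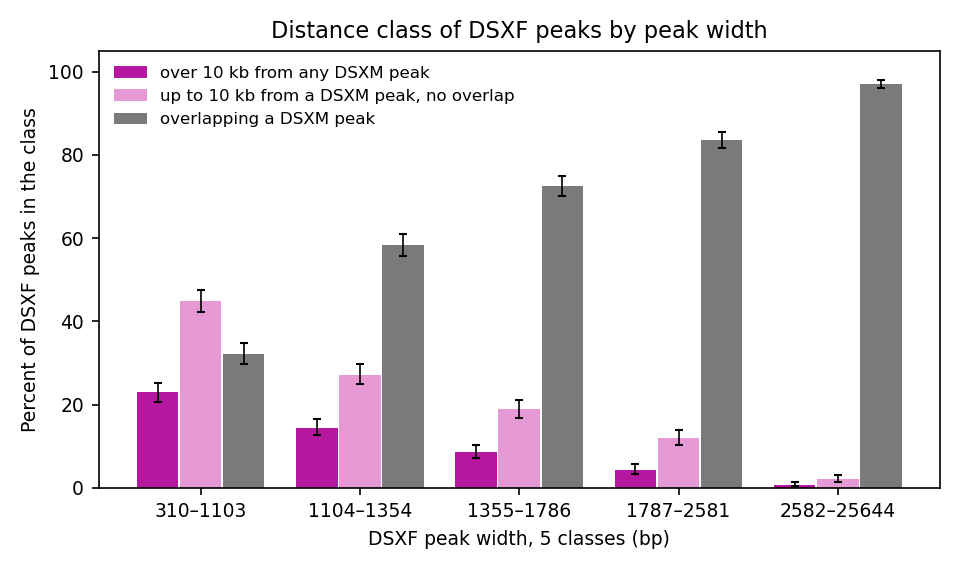
Percent of DSXF peaks (y axis) that lay over 10 kb from DSXM, within 10 kb without overlap, or in overlap with DSXM, in 5 width classes of like size (x axis, bp). Bars are shares of the class and error bars are 95% Wilson intervals; the share over 10 kb was 22.9% in the narrowest class and 0.770% in the widest.

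Across 5 width classes of like size the share of far DSXF peaks fell at each step. It was 22.9% (20.7 to 25.3%) among the DSXF peaks of 310 to 1103 bp, 14.4% (12.6 to 16.4%) from 1104 to 1354 bp, 8.55% (7.14 to 10.2%) from 1355 to 1786 bp, 4.39% (3.41 to 5.65%) from 1787 to 2581 bp and 0.770% (0.419 to 1.41%) at 2582 bp and above. In numbers these were 298, 187, 111, 57 and 10 peaks. Among DSXF peaks without overlap alone, the shares differed less and did not fall at each step. Of these, the far ones made up 33.8%, 34.6%, 31.2%, 26.9% and 26.3% of the same classes. The widest class rests on 10 far peaks and 28 within 10 kb of DSXM. No intervals were computed for these shares, so no gradient is read from them.

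Distance from DSXM ranged widely. The median gap was 21.5 kb (20.2 to 23.1 kb), with quartiles of 14.3 and 36.2 kb and a ninth decile of 58.4 kb. A gap above 20 kb was seen for 363 peaks (54.8%, 50.9 to 58.5%), above 50 kb for 95 (14.3%, 11.9 to 17.2%) and above 100 kb for 22 (3.32%, 2.20 to 4.97%). On the side away from the nearest DSXM peak, the next DSXM peak was a median of 52.2 kb away, and 6 far DSXF peaks had a DSXM peak on 1 side only, at the end of a sequence. The limit lay within a run of closely spaced values. The 3 peaks just above it were chrX:8982997-8984494 (gap 10.05 kb), chr3R:7658813-7659952 (10.07 kb) and chr2L:6488529-6489547 (10.08 kb). The 3 just below it were chr2L:1186486-1188120 (9.995 kb), chr3R:24681932-24683018 (9.98 kb) and chr3L:7763285-7763915 (9.97 kb).

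The peaks most remote from DSXM lay near the low-coordinate end of X, in a stretch of 799 kb without a DSXM peak. There the DSXF peak chrX:530160-532033 (1874 bp) was 388 kb from the nearest DSXM peak on one side and 409 kb on the other. Its nearest DSXF peak was 126 kb away. The next in order were in the same stretch, chrX:668013-669171 (1159 bp, gap 272 kb), chrX:402836-403889 (1054 bp, 261 kb) and chrX:392641-393787 (1147 bp, 251 kb). Further remote peaks formed a group of 3 on 2R, chr2R:19263842-19265190 (gap 161 kb), chr2R:19270403-19271439 (168 kb) and chr2R:19272819-19274498 (170.4 kb). The remaining 3 of the 10 with the largest gaps were chrX:14479030-14480031 (163 kb), chr3R:23626392-23627459 (146 kb) and chrX:4975532-4979356 (139 kb). The last of these was also the widest far DSXF peak, at 3825 bp.

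Width differed little between less and more remote far DSXF peaks. The median width was 1140.5 bp (1101 to 1194 bp) for the 300 peaks with a gap of 10 to 20 kb, 1106 bp (1080 to 1153 bp) for the 268 with a gap of 20 to 50 kb and 1147 bp (1119 to 1207 bp) for the 95 beyond 50 kb, and the intervals overlapped. The share of 2000 bp or wider was 5.67% (3.57 to 8.89%), 5.97% (3.71 to 9.48%) and 7.37% (3.61 to 14.4%) in the same order. Of the 5 widest, 4 were on X. Besides the one at 4975532, they were chrX:7860768-7864424 (3657 bp, gap 19.0 kb), chrX:8412902-8416379 (3478 bp, gap 11.99 kb, with another DSXF peak 0.302 kb away) and chrX:10366235-10369135 (2901 bp, gap 12.6 kb). The other was chr3L:12101383-12105057 (3675 bp, gap 15.3 kb).

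**Figure D2:**
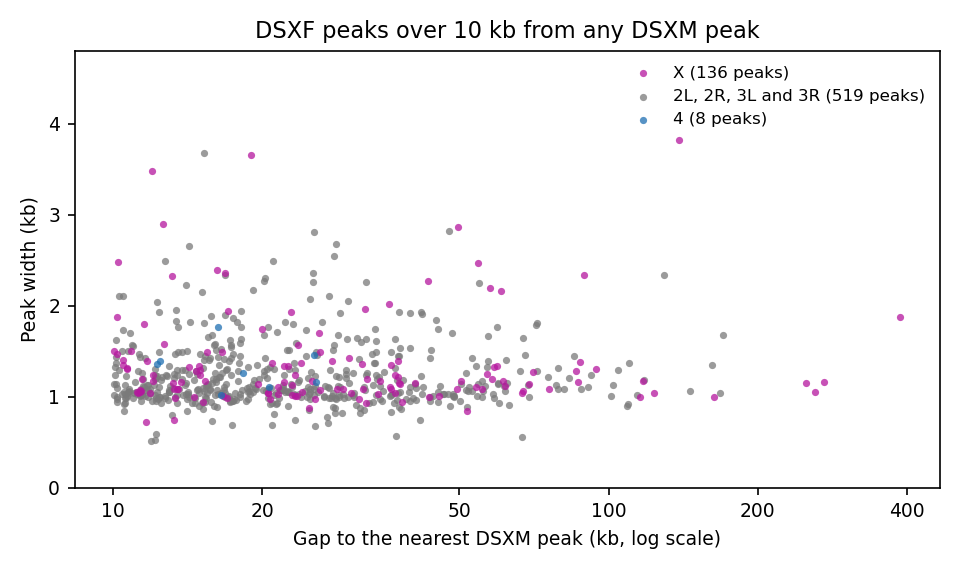
Width of each far DSXF peak (y axis, kb) against its gap to the nearest DSXM peak (x axis, kb, log scale), 1 point per peak, coloured by chromosome sequence (136 on X, 519 on the autosome arms and 8 on 4). Of the points, 64.3% lie from 1 to under 1.5 kb, and the 4 points beyond 200 kb are all on X.

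To set the number of far DSXF peaks against the room for them, peaks were counted per Mb of sequence at a given distance from DSXM. Over the 119.9 Mb between the first and last peak of the 6 sequences, 58.6 Mb (48.9%) lay more than 10 kb from any DSXM peak. Far DSXF peaks there numbered 11.3 per Mb (95% exact Poisson interval 10.5 to 12.2). In the 50.6 Mb outside DSXM peaks and within 10 kb of them, DSXF peaks without overlap numbered 27.0 per Mb (25.6 to 28.5). All DSXF peaks over the whole of the 6 sequences came to 54.1 per Mb.

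Density fell with distance among the far DSXF peaks too. Density was 14.6 per Mb (12.99 to 16.3) at gaps of 10 to 20 kb, 12.7 (10.7 to 14.9) at 20 to 30 kb, 9.22 (7.62 to 11.04) at 30 to 50 kb, 7.46 (5.85 to 9.38) at 50 to 100 kb and 5.97 (3.74 to 9.04) beyond 100 kb. Nearer to DSXM it was 32.1 per Mb (28.6 to 35.98) within 1 kb, 31.6 (27.7 to 35.9) at 1 to 2 kb, 29.98 (27.4 to 32.8) at 2 to 5 kb and 19.6 (17.6 to 21.8) at 5 to 10 kb. Peaks were placed by the edge nearest to DSXM. The largest step between neighbouring classes lay between 2 to 5 kb and 5 to 10 kb, below the 10 kb limit.

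**Figure D3:**
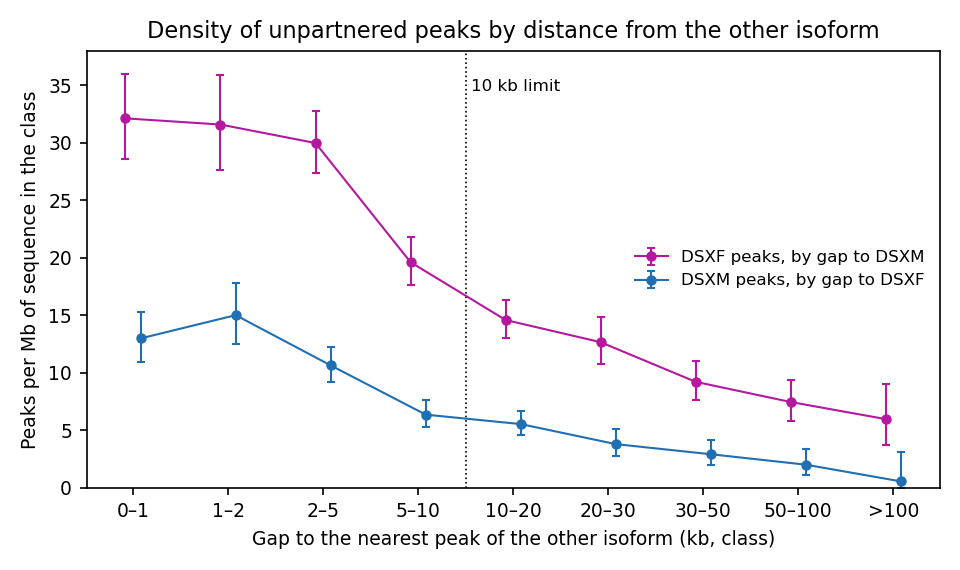
Peaks without overlap per Mb of sequence (y axis) in classes of gap to the nearest peak of the other isoform (x axis, kb), for DSXF peaks and, in the mirrored count, for DSXM peaks. Points are densities, bars are 95% exact Poisson intervals, and the dotted line is the 10 kb limit, above which DSXF density ran between 14.6 and 5.97 per Mb.

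The mirrored set, DSXM peaks more than 10 kb from any DSXF peak, was smaller. Against the 663 far DSXF peaks (10.2% of DSXF peaks on the 6 sequences) there were 199 far DSXM peaks (3.72%, 3.25 to 4.26%, of 5347), a ratio of 3.33. The ratio was 3.17 with a limit of 5 kb (1009 and 318 peaks) and 4.17 with a limit of 20 kb (363 and 87 peaks). When the DSXF list was shortened to its 5370 widest peaks, as many as the DSXM list holds, the ratio was 1.14. The number of far DSXF peaks was then 392, against 663 in the whole list, and the number of far DSXM peaks was 343, against 199, since DSXM peaks whose neighbouring DSXF peaks had been dropped counted as far. This setting changes the length of the list together with its widths, as it keeps peaks of 1083 bp and above, and the parts of length and width in the ratio cannot be told apart. Far DSXF peaks had a median width of 1130 bp and far DSXM peaks one of 1210 bp (1148 to 1306 bp). The median gap was 21.5 kb for far DSXF peaks and 18.4 kb (16.7 to 20.4 kb) for far DSXM peaks. The density of far DSXM peaks also fell with distance, between 5.54 per Mb (4.56 to 6.67) at 10 to 20 kb and 2.01 (1.10 to 3.38) at 50 to 100 kb. Beyond 100 kb there were 22 far DSXF peaks and 1 far DSXM peak. That DSXM peak, chr3L:24529971-24531293, was the last peak of its sequence, with a gap of 506 kb. The next 4 far DSXM peaks by gap lay between 69.96 and 84.1 kb from DSXF, on 3R and 3L.

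All 6 sequences held far DSXF peaks. X had 136 of them, 2L had 134, 2R had 125, 3L had 120, 3R had 140 and chromosome 4 had 8. The far class was a larger share of the DSXF peaks on X than on the autosome arms. Far DSXF peaks were 16.3% (13.9 to 18.9%) of the 835 DSXF peaks on X, against 9.25% (8.52 to 10.04%) of the 5608 on the autosome arms. Far DSXM peaks were likewise a larger share on X, at 8.00% (6.18 to 10.3%) of 675 DSXM peaks, against 2.92% (2.47 to 3.45%) of 4619. All DSXF peaks were sparser on X, at 37.5 per Mb against 58.2 on the autosome arms. The sequence far from DSXM was also larger on X, at 60.5% of its length, against 46.3% on the autosome arms. Counted per Mb of that sequence, far DSXF peaks on X came to 10.1 (8.47 to 11.9), against 11.6 (10.6 to 12.7) on the autosome arms, with overlapping intervals. The median width was 1173.5 bp (1145 to 1243 bp) on X and 1113 bp (1093 to 1138 bp) on the autosome arms, and the median gap was 24.4 kb (22.1 to 31.3 kb) and 20.8 kb (18.9 to 22.5 kb). The width intervals did not overlap, and the gap intervals did. Taken singly, 2R (1165 bp, 1099 to 1240 bp) and 3L (1128 bp, 1084 to 1241 bp) had width intervals that overlapped that of X. Those of 2L and 3R did not. Among the arms the density ran from 10.8 per Mb (8.92 to 12.9) on 3L to 12.5 per Mb (10.4 to 14.9) on 2R.

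The balance between far DSXF and far DSXM peaks differed in value from sequence to sequence. Of the 862 far peaks of either isoform, 76.9% (74.0 to 79.6%) were DSXF peaks. The DSXF list was also the longer one, with 6494 peaks against 5347 on the 6 sequences. With the DSXF list shortened to the length of the DSXM list, far peaks numbered 392 for DSXF and 343 for DSXM. The shares below come from the whole lists and are not adjusted for this. The arms of the second chromosome had the highest shares, 84.5% (77.8 to 89.4%) for 2R and 83.2% (76.7 to 88.2%) for 2L. For 3R it was 76.1% (69.4 to 81.7%), for 3L 74.5% (67.3 to 80.6%) and for X 71.6% (64.8 to 77.5%). Among these 5 main arms, only the intervals of 2R and X did not overlap. On the small chromosome 4, which is largely heterochromatic, 8 of 18 far peaks were DSXF peaks (44.4%, 24.6 to 66.3%). In all, chromosome 4 held 51 DSXF and 53 DSXM peaks. Its density of far DSXF peaks was 15.9 per Mb (6.88 to 31.4), and that of far DSXM peaks 19.1 per Mb (9.18 to 35.2). These rest on 0.502 Mb and 0.523 Mb of sequence. The 8 far DSXF peaks on 4 were 1024 to 1768 bp wide and lay 12.3 to 25.7 kb from DSXM. They were chr4:213620-215009, chr4:226060-227161, chr4:379948-381404, chr4:424276-426043, chr4:1000060-1001316, chr4:1009726-1010749, chr4:1084844-1086200 and chr4:1233836-1235001.

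**Figure D4:**
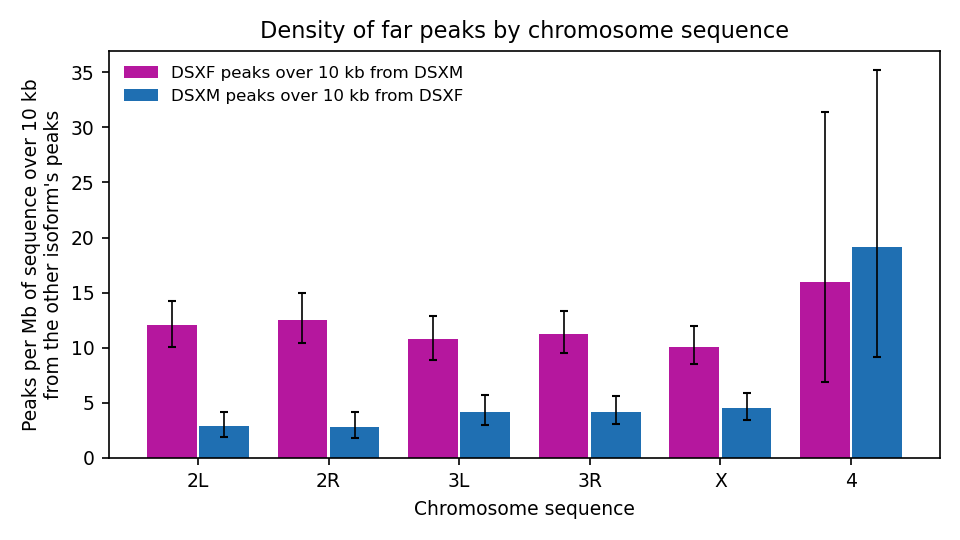
Far DSXF peaks and far DSXM peaks per Mb of sequence more than 10 kb from the other isoform's peaks (y axis), on each chromosome sequence (x axis). Bars are densities and error bars 95% exact Poisson intervals. DSXF stands above DSXM on 2L, 2R, 3L, 3R and X, while on 4 the intervals overlap widely. Densities are not adjusted for the longer DSXF list (6494 peaks, against 5347 for DSXM).

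Along the 5 main arms, each divided into 5 equal parts by length, far DSXF peaks were present in every part. Counting from the end next to the centromere, they numbered 147, 104, 127, 135 and 142. They were 13.5% (11.6 to 15.6%) of the DSXF peaks in the part next to the centromere and 7.86% (6.53 to 9.44%) of those in the part beside it, then 9.16%, 10.0% and 10.98% in the outer parts. The part next to the centromere also had the most sequence far from DSXM, at 13.7 Mb, against 11.0 Mb in the part beside it. Per Mb of that sequence the 5 values were 10.7, 9.47, 12.2, 12.3 and 11.8, with intervals that overlapped between neighbouring parts.

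Far DSXF peaks often shared a DSXM-free stretch. There were 1424 such stretches counted as having room for a far peak (over 20 kb long, or over 10 kb at the end of a sequence), and 431 of them (30.3%, 27.9 to 32.7%) held all 663 peaks. This count leaves out the width of the peak itself, so stretches only just over the limit could not hold one. The shortest that did was 22.0 kb long. Shares of stretches with a far peak are lowered by this, most in the class of 20 to 30 kb. A single far DSXF peak was found in 279 stretches, 2 in 96, 3 in 41 and 4 or more in 15, and 384 peaks (57.9%, 54.1 to 61.6%) shared their stretch with another. For the mirrored set, 165 of 1460 DSXF-free stretches (11.3%, 9.78 to 13.03%) held the 199 far DSXM peaks, of which 59 (29.6%, 23.7 to 36.3%) shared a stretch. More peaks in a like number of stretches share them more often by number alone. With 663 far DSXF peaks against 199 far DSXM peaks, no difference in clustering is read from these shares. Longer stretches held far DSXF peaks more often. The share with at least 1 was 5.44% (3.65 to 8.03%) of 423 stretches of 20 to 30 kb, 29.2% (25.0 to 33.8%) of 404 of 30 to 50 kb, 42.2% (37.4 to 47.2%) of 386 of 50 to 100 kb and 59.4% (52.6 to 65.9%) of 207 longer ones. Of these 207, 53 (25.6%, 20.1 to 31.96%) held no DSXF peak apart from any that overlapped the DSXM peaks at their ends.

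**Figure D5:**
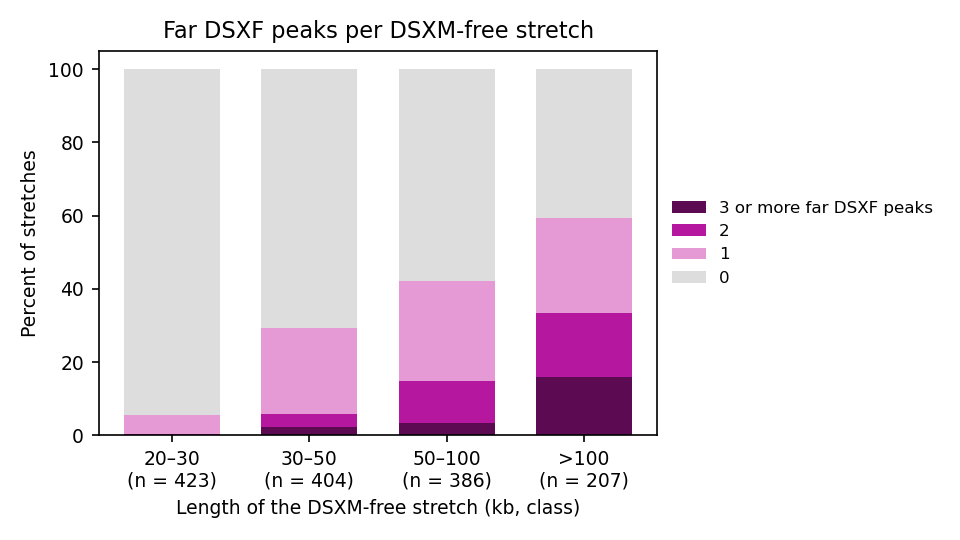
Percent of DSXM-free stretches (y axis) that held 0, 1, 2 or 3 and more far DSXF peaks, by length of the stretch (x axis, kb, with the number of stretches). The share with at least 1 was 5.44% in the shortest class and 59.4% in the longest.

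Within a stretch, fewer DSXF peaks per Mb were counted in the part over 10 kb from DSXM than in its flanks. In stretches of 50 to 100 kb the inner part held 12.5 far DSXF peaks per Mb (10.9 to 14.2), against 25.4 DSXF peaks per Mb (21.96 to 29.2) in the flanks of 10 kb on either side. In stretches over 100 kb the densities were 8.13 (7.14 to 9.22) in the inner part and 21.7 (17.5 to 26.7) in the flanks. In stretches of 30 to 50 kb they were 19.9 (16.8 to 23.3) and 25.7 (22.4 to 29.5), and these intervals overlapped. In stretches of 20 to 30 kb they were 13.3 (8.55 to 19.9), from 24 far DSXF peaks, and 25.7 (22.4 to 29.3). A far peak had to lie whole within the inner part, and a peak across its border was counted in the flanks. This lowers the inner densities by construction. It does so most in the class of 20 to 30 kb, whose 423 inner parts came to only 1.80 Mb, so no difference is read from that class.

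Stretches were ranked by the number of far DSXF peaks and not by their density, and longer ones have more room. The stretch with most far DSXF peaks was chr3R:1556983-1832628, 276 kb long, with 7 peaks of 962 to 2334 bp. Their starts were at 1584228, 1597898, 1614231, 1616838, 1658363, 1686381 and 1812821. Next were 2 stretches on X with 6 each. The first was the one of 799 kb described above, chrX:142095-940696, and the second was chrX:4259048-4560744 (302 kb), where the peaks were 1001 to 1336 bp wide and included close neighbours at 4318598 and 4320301 and at 4442387 and 4443871. On 2R, 5 far DSXF peaks lay between 19102392 and 19467376 (365 kb). On 2L, 5 lay in the stretch chr2L:6928389-7026563, 98.2 kb long. Those 5 were the most tightly packed of the named stretches, since all lay between 6949774 and 6967139, a span of 17.4 kb, with widths of 1039, 876, 882, 1270 and 1629 bp.

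Most far DSXF peaks had no other DSXF peak close by. The nearest other DSXF peak lay a median of 11.4 kb (10.6 to 12.5 kb) from a far DSXF peak, against 2.27 kb (2.15 to 2.42 kb) for DSXF peaks within 10 kb of DSXM and 2.34 kb (2.21 to 2.45 kb) for those in overlap with DSXM. Another DSXF peak lay within 10 kb for 277 far DSXF peaks (41.8%, 38.1 to 45.6%) and within 2 kb for 101 (15.2%, 12.7 to 18.2%), while 40 had none within 50 kb. A DSXF peak that overlaps DSXM can lie within 10 kb of a far one only where it reaches out past the DSXM peak, so the choice itself enlarges these distances. The nearest DSXF neighbour was another far peak for 311 (46.9%, 43.1 to 50.7%), a peak that overlapped DSXM for 250 (37.7%, 34.1 to 41.5%) and a peak near DSXM without overlap for 102 (15.4%, 12.8 to 18.3%). Far DSXM peaks had a far DSXM peak as nearest neighbour in 49 of 199 cases (24.6%, 19.2 to 31.1%). The number of far peaks, 663 for DSXF and 199 for DSXM, itself bears on these shares, so they are not read as a difference in clustering. Between far DSXF peaks that followed each other in the same stretch, the distance had a median of 8.81 kb (6.73 to 10.6 kb) over 232 steps, of which 49 were of 2 kb or less.

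The DSXM peaks on either side of the stretches were mostly shared with DSXF. Of the 804 DSXM peaks that bounded a stretch with a far DSXF peak, 656 (81.6%, 78.8 to 84.1%) overlapped a DSXF peak. The share was 82.4% (80.6 to 84.2%) of the 1725 that bounded a stretch with room and no far DSXF peak, and a DSXM peak can bound one of each kind. It was 85.3% of all DSXM peaks on the 6 sequences. The bounding DSXM peaks had a median width of 1406.5 bp (1342 to 1474 bp) where the stretch held a far DSXF peak and 1489 bp (1458 to 1528 bp) where it did not, against 1580 bp (1556 to 1604 bp) over all DSXM peaks. The intervals for stretches with and without a far DSXF peak overlapped. Such stretches also differed in length, since longer ones held far DSXF peaks more often.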

How the data were processed

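Occupancy was measured by chromatin immunoprecipitation and sequencing; per the labels' protocols, chromatin was fixed with 1% formaldehyde for 10 min and sheared to 200 to 1000 bp. Replicate reads were pooled before alignment, per the labels, and Bowtie 0.12.7, Picard and the build dm3 are named per the submitters' processing notes. Which peak caller, threshold and control were used is not given in the sources used here. As deposited by the authors, each isoform has 1 list of sequence name, start and end, whose starts were taken as zero-based and are printed as positions counted from 1. A deeper sample can yield more peaks, and depth is unknown.

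Members and their alternatives were chosen with earlier results of these data known. Overlap meant 1 bp or more, and a gap was the number of bp between edges. Python 3.11.15, NumPy 2.4.6 and SciPy 1.17.1 were used; bedtools 2.31.1 gave the same 663 and 199 far peaks, and 2000 of 2000 simulated peaks were placed in their planted class. Intervals are 95% Wilson (shares), exact Poisson (densities) and order-statistic (medians). Sequence lengths count the span between the outermost peaks of the lists. Regions named by rule were the 10 largest gaps, 5 widest, 5 fullest stretches, 3 on either side of the limit, those on 4 and the far DSXM peaks with the 5 largest gaps. Genes and sequences are not reported, since the gene table used here is of another build.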

Additional observations from a re-analysis of the deposited data

How the results depend on the processing

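Replicates were pooled, so none could be left out, and no paired analysis was possible because the deposited lists hold pooled replicates without numbers. All 6 alternatives were planned. The 663 far DSXF peaks became 1009 with a gap above 5 kb, 363 with a gap above 20 kb, 392 with the DSXF list shortened to the length of the DSXM list (peaks of 1083 bp or wider) and 431 with 1 peak per DSXM-free stretch. In the shortened list the median width was 1320 bp, by construction, and 24.0% of far peaks were on X; under the other 5 alternatives both stayed within the interval of the main value. Density per Mb was 13.2 at 5 kb, 9.53 at 20 kb, 12.4 with distances between centres, 6.68 in the shortened list and 7.35 with 1 peak per stretch. The share with another DSXF peak within 10 kb was 59.8% at 5 kb, 49.0% with distances between centres, 28.8% in the shortened list and 30.4% with 1 peak per stretch. The shortened list and the count of 1 peak per stretch hold fewer peaks by construction. For the density, the 5 and 20 kb limits move along its fall with distance. For the share, the 5 kb limit lets DSXF peaks that overlap DSXM lie 5 to 10 kb from a far one. The 10 kb limit mostly bars this. A distance between centres exceeds the gap between edges. A 10 kb limit on it therefore also takes in smaller gaps, and 762 peaks met it. How far these points account for the values was not tested. What read depth limits cannot be said, since the files give none.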

Other observations

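Tight runs of far DSXF peaks, listed after their values were seen, were few. Joining far DSXF peaks that followed each other within 5 kb gave 578 groups, of which 504 were single peaks, 64 held 2, 9 held 3 and 1 held 4, so 159 of the 663 peaks had such a close far neighbour. The run of 4 was on 2L from 6956443 to 6967139, a span of 10.7 kb. Runs of 3 lay on 2L (from 4453992, 7386632 and 20644939), on 3L (from 1299600, 3566954, 8168630, 12101383 and 21052947) and on 3R (from 2673891). Neither X nor 2R held a run of 3, although both held stretches with 5 or more far DSXF peaks. The run from 4453992 to 4459277 on 2L was the most remote of them, at least 81.4 kb from any DSXM peak.

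When the 5 main arms were divided into 121 bins of 1 Mb, the median was 6 far DSXF peaks per bin, 3 bins held none and the highest number was 13. That number was reached on 2L between 6 and 7 Mb, in a bin with 52 DSXF and 34 DSXM peaks in all, and on X between 18 and 19 Mb, in a bin with 32 DSXF and 20 DSXM peaks. On heterochromatic and unplaced sequences, which were not part of the choice, 5 DSXF peaks and 3 DSXM peaks met the same condition of no overlap and a gap above 10 kb.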
